A study of Mus musculus with 6 samples.

Results

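Several ribosomal protein genes of the mouse have a second, related gene elsewhere in the genome. The 10 genes described here form 5 pairs of such a paralog with its widely expressed parent: Rpl39l with Rpl39, Rpl10l with Rpl10, Rpl3l with Rpl3, Rpl22l1 with Rpl22 and Rps27l with Rps27. The members were chosen by name, with their fold changes in the study's own comparison already known, so every fold change below is a description and none is a test. All 10 have a row among the 17110 genes of the authors' deposited table. The data come from mouse embryonic stem cells of the line TG2A, which carry a fluorescent protein under MERVL, a retroviral element that switches on in the early embryo and in few cells of a stem cell culture. Cells were kept in serum with leukemia inhibitory factor, and flow sorting gave a MERVL::DsRed2-positive (DsRed2+) and a MERVL::DsRed2-negative (DsRed2-) group, each of 3 samples collected on separate dates. Both groups share the reporter and the culture, and the reporter stands in for a cell state through the activity of 1 element. The question behind the comparison is how cells in the MERVL-active, two-cell-like state differ from the rest of the culture.

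A ribosome holds 1 copy of nearly every ribosomal protein, and the parents supply it in almost all tissues. A paralog encodes a protein that can take its parent's place, so a cell that makes both can build ribosomes of mixed kind. Rpl39l and Rpl10l are best known from male germ cells, where they stand in for X-linked parents while the X chromosome is silent. Rpl3l is known from heart and skeletal muscle, Rps27l as a target of p53, and Rpl22l1 as a gene that is held down by the Rpl22 protein.

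The values are the mean normalized count over all libraries and the log2 fold change with its standard error (SE), both as deposited. The table names neither the groups it compares nor its numerator. It was taken to compare the sorted groups because the labels list no others. The "positive side" below is the group in which genes with a positive fold change were higher, and which of the sorted groups that is was not settled. Library depths and values per sample are not given here, because the 6 columns of the count table match no sample label. Of 12 stem cell markers 11 had a row, with mean counts in the authors' deposited table from 1260 to 38163, which fits the labelled cell type. Of these 11 the authors' deposited table calls 5 up and 0 down, against 9.4% up and 12.1% down over all genes. The median of the 11 was 0.39, with Tbx3 highest at 2.39 (SE 0.18). The part of these markers in the fold changes below was not tested. Of 13 two-cell markers only Calcoco2 had a row used here, where the authors' deposited table gives 3.10 (SE 0.14) on the log2 scale, and the other 12 were not analysed here. In bulk RNA, more cells of a kind and more RNA per cell cannot be told apart.

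The paralogs fell into 3 that were higher on the positive side (Rpl39l, Rpl10l and Rpl3l) and 2 that were not called (Rpl22l1 and Rps27l), while all 5 parents lay between -0.05 and 0.08, and the signs of Rpl39, Rpl22, Rps27 and Rpl3 turn negative when the fold changes are centred on the ribosomal protein genes. The authors' calls of up and down need a log2 fold change beyond 0.5 in size and an adjusted p-value under 0.05. By that rule the authors' deposited DESeq2 table calls 3 of 5 paralogs up, 0 down, and 0 of 5 parents in either direction, with 0 parents at an unadjusted p-value under 0.05. Over all genes the same rule calls 9.4% up and 12.1% down, and since the pairs were chosen on this comparison nothing is read from the difference in share.

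**Figure D1:**
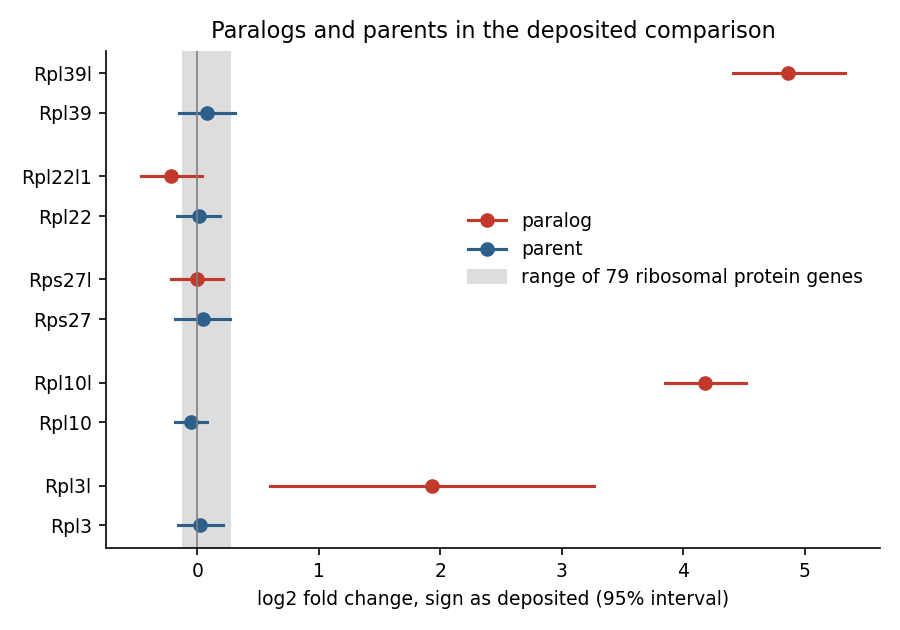
Log2 fold change of each paralog (red) and its parent (blue) as deposited, with bars for the 95% interval (1.96 SE) and a grey band for the range of 79 ribosomal protein genes, -0.12 to 0.27. Rpl39l, Rpl10l and Rpl3l lie to the right of the band with their whole intervals. The 5 parents are among the 79 genes whose range the band shows, so their points lie inside it by construction.

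Rpl39 is a very small protein in the wall of the tunnel through which the new peptide leaves the large subunit, and Rpl39l is its autosomal counterpart. Both encode 51 codons. Their coding sequences are printed here because they show how far reads of one gene can be told from reads of the other. They are the GENCODE M21 transcripts on GRCm38, without the stop codon, from chromosome 16 (plus strand) for Rpl39l and chromosome X (minus strand) for Rpl39, and capitals mark the bases at which the genes differ.
Rpl39l: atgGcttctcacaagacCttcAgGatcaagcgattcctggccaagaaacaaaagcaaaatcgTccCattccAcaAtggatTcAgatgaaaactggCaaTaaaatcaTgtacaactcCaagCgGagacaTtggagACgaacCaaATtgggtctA
Rpl39: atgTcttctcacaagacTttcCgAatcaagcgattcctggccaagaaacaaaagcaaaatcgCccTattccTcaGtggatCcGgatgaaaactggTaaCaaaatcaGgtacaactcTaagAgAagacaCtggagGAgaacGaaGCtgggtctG
The sequences differ at 23 of 153 bases, an identity of 85%, and their longest identical run is 38 bases. Of the 21 codons that differ, 3 change the encoded amino acid.

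For Rpl39l (ENSMUSG00000039209) the authors' deposited table gives a log2 fold change of 4.87 (SE 0.23), a 29.2-fold difference with a 95% interval of 4.41 to 5.33 on the log2 scale. The 1096 genes with mean counts close to its own had a median SE of 0.16, so Rpl39l was measured less precisely than most of them. Its mean normalized count was 405, close to the middle of the table, where 50.4% of genes had a lower mean. Among the 11381 genes whose mean count reached 100, it ranked 1 by fold change, and over all genes it ranked 17. With equal group sizes, that mean and fold change in the authors' deposited table imply about 26.9 normalized counts on the negative side and 783 on the positive side. The implied level on the negative side is therefore low but not 0.

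Rpl39 (ENSMUSG00000079641) stood at 0.08 (SE 0.12) with a mean count of 10468 in the authors' deposited table. The paralog exceeded its parent by 4.79 on the log2 scale (SE 0.26, taking the SEs as independent). Per kilobase of the longest coding transcript, the mean level of Rpl39 was 34 times that of Rpl39l. The implied share of Rpl39l in the RNA of the pair was 0.2% on the negative side and 5.25% on the positive side. Rpl39 thus made up most of the pair's RNA on both sides.

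Of the genes whose mean count reached 100, those nearest to Rpl39l by fold change were Pnma5, Catip and Arl14epl, at 4.39, 4.34 and 4.22 in the authors' deposited table. Their distances from Rpl39l were 0.47, 0.53 and 0.64 on the log2 scale, and their SEs were 0.44, 0.38 and 0.27. This likeness rests on a single comparison, and 0 genes of that abundance lay above Rpl39l.

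Rpl10 joins the large subunit late in its assembly, near the site of peptide bond formation, and Rpl10l is an intronless relative that male meiosis depends on. Rpl10l (ENSMUSG00000060499) had a log2 fold change of 4.18 (SE 0.17) and a mean count of 1484 in the authors' deposited table. That is an 18.2-fold difference, with a 95% interval of 3.85 to 4.52 on the log2 scale, and a rank of 7 among the 11381 genes and of 46 over all genes. The implied means were 155 normalized counts on the negative side and 2813 on the positive side. Of the paralogs that were higher on the positive side, Rpl10l was the most abundant, also per kilobase, at 1450 normalized counts against 503 for Rpl39l and 10.9 for Rpl3l.

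Its parent Rpl10 (ENSMUSG00000008682) was at -0.05 (SE 0.06) with a mean count of 54051 in the authors' deposited table, and 99.6% of genes had a lower mean. Rpl10l exceeded Rpl10 by 4.23 on the log2 scale (SE 0.18). Per kilobase the level of Rpl10 was 43.6 times that of Rpl10l. The implied share of Rpl10l in the pair was 0.235% on the negative side and 4.24% on the positive side. In both X-linked pairs the paralog thus passed from well under 1% of the pair's RNA to between 4.24% and 5.25%.

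Rpl10l and Rpl10 encode 214 codons each and agree at 84.7% of coding bases. Of 96 codons that differ, 3 change the amino acid, so nearly all base differences of this pair are silent. The annotated Rpl10l transcript has 1 exon.

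Rpl3 lies close to the peptidyl transferase centre, and Rpl3l is its striated muscle counterpart. Rpl3l (ENSMUSG00000002500) had a log2 fold change of 1.94 (SE 0.68) on a mean count of only 15 in the authors' deposited table. Its 95% interval runs from 0.60 to 3.27, so the size of this difference is poorly set. In the authors' deposited table, the 966 genes with mean counts close to its own had a median SE of 0.62, so the error of Rpl3l is ordinary for its level. With so few counts, whether 1 library carries the difference was not examined. The implied means were 6.21 normalized counts on the negative side and 23.8 on the positive side.

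Rpl3 (ENSMUSG00000060036) stood at 0.02 (SE 0.09) with a mean count of 47774 in the authors' deposited table. Per kilobase, its level was 3245 times that of Rpl3l, and the implied share of Rpl3l in the pair was 0.0129% on the negative side and 0.0484% on the positive side. Rpl3l exceeded Rpl3 by 1.91 on the log2 scale (SE 0.69). Markers of striated muscle moved in no common direction: of 17 listed genes 8 had a row, with 0.13 as the median. The authors' deposited table calls 2 of the 8 up and 2 down, against 9.4% up and 12.1% down over all genes. The muscle markers are given beside Rpl3l only as values, and their part in its fold change was not tested.

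**Figure D2:**
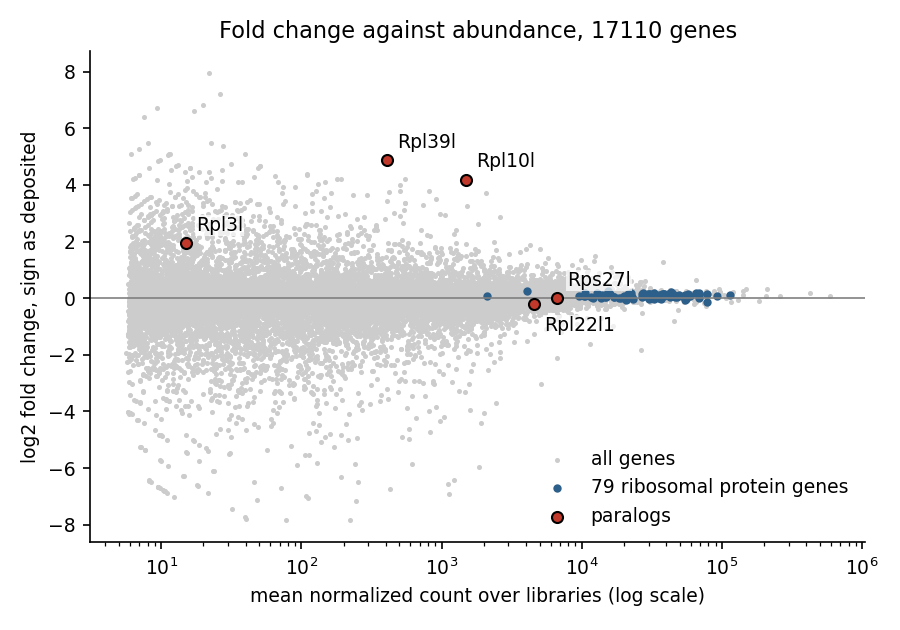
Log2 fold change as deposited against the mean normalized count over libraries (log axis) for 17110 genes in grey, 79 ribosomal protein genes in blue and the 5 paralogs in red. Rpl39l and Rpl10l lie at the upper edge for their abundance, Rpl3l lies within the wide scatter of low counts, and Rps27l and Rpl22l1 lie near the ribosomal protein genes.

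Rpl22 binds structured RNA on the outside of the large subunit, and its paralog Rpl22l1 was present at a mean count of 4529 in the authors' deposited table. Rpl22l1 (ENSMUSG00000039221) had a log2 fold change of -0.21 (SE 0.13), with a 95% interval of -0.46 to 0.04 in the authors' deposited table. Its parent Rpl22 (ENSMUSG00000028936) was at 0.01 (SE 0.09), and the authors' deposited table gives it a mean count of 18308. The difference between them was -0.23 (SE 0.16), with an interval from -0.54 to 0.08, which bounds any change of their ratio well below those of Rpl39l and Rpl10l.

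The relative level of this pair depends on the length used. Per kilobase of the longest coding transcript Rpl22 was 1.09 times as high as Rpl22l1, and per kilobase of coding length 3.85 times. The longest coding transcript of Rpl22 has 2051 bases and the shortest 474, and which of them the cells made was not measured here.

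Rps27 is a zinc-binding protein of the small subunit, and the Rps27l transcript compared with it here has the same number of codons, 84. Rps27l (ENSMUSG00000036781) had a log2 fold change of -0.0042 (SE 0.11) and a mean count of 6651 in the authors' deposited table. Its parent Rps27 (ENSMUSG00000090733) stood at 0.05 (SE 0.11), and the authors' deposited table gives it a mean count of 14719. Their difference was -0.05 (SE 0.16), with an interval of -0.36 to 0.26. Per kilobase Rps27 was 2.78 times as high as Rps27l, so this paralog made up 26.8% of the pair on the negative side and 26.1% on the positive side. The coding sequences agree at 76.2% of bases, and 3 of 53 differing codons change the amino acid.

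Other p53 targets are given beside Rps27l. Of 20 listed targets in the authors' deposited table, 2 were called up, 7 down and 11 not called, against 9.4% up and 12.1% down over all genes. The median log2 fold change of these targets was -0.40, against 0.0097 for all genes. The lowest was Perp, a cell adhesion gene, at -2.33 (SE 0.26), and the highest Gdf15, a stress-induced cytokine, at 1.29 (SE 0.45) in the authors' deposited table. Rps27l lay between them, near 0.

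**Figure D3:**
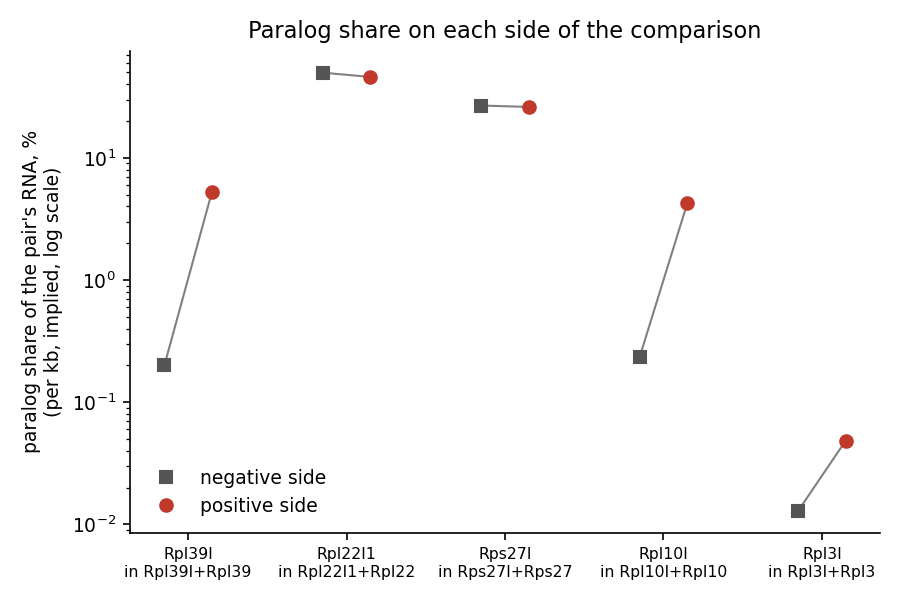
Implied share of the paralog in the RNA of its pair, in % on a log axis and per kilobase of the longest coding transcript, on the negative side (grey squares) and the positive side (red circles) of the comparison. Rpl39l passes from 0.2% to 5.25% and Rpl10l from 0.235% to 4.24%, while Rps27l stays near 26%.

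How well reads separate these genes was examined in the GENCODE M21 transcripts, since many ribosomal protein genes have processed copies. Each 75-base stretch of a gene's longest coding transcript was searched in all transcripts of other genes, on both strands. For Rpl39l, 0 of 731 stretches occurred in another gene, for Rpl3l 0 of 1301, and for Rpl10l 3 of 949, all in Gm14460. The paralogs that were higher on the positive side are thus almost wholly made of stretches found in no other annotated gene, their parents included.

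The parents were less distinct. Rpl10 shared 84.9% of its stretches with other genes, Rpl3 shared 83.2% and Rps27 shared 60.7%, led by the copies Rpl10-ps3, Rpl3-ps1 and Rps27rt, while Rpl39 shared 7.62% and Rpl22 1.42%. Of the paralogs that were not called, Rpl22l1 shared 58.6% of its stretches, led by Gm15421, and Rps27l shared 4.39%. How the authors divided reads among such copies is not stated, so the levels of Rpl10, Rpl3, Rps27 and Rpl22l1 are uncertain.

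**Figure D4:**
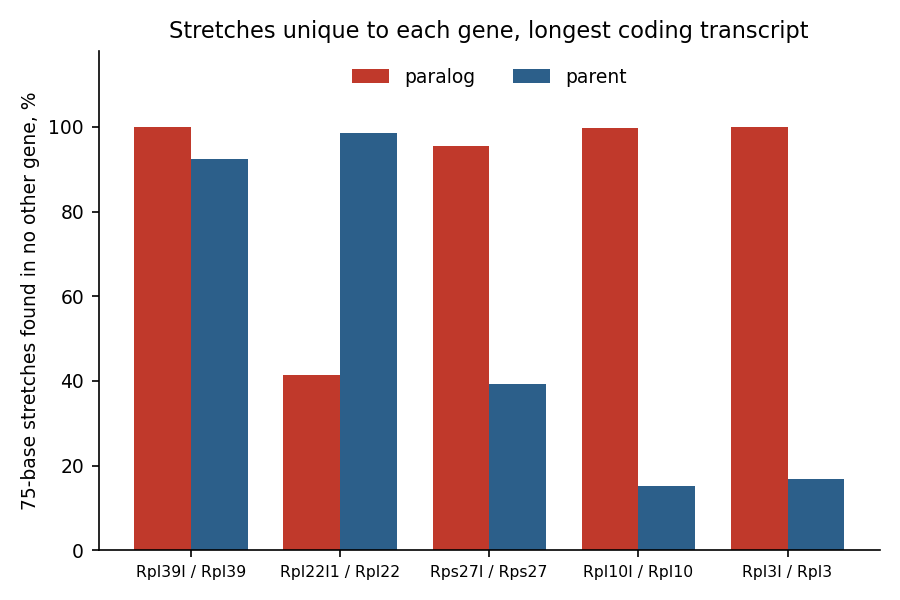
Share of 75-base stretches of the longest coding transcript that occur in no other annotated gene, in %, for each paralog (red) and its parent (blue). Rpl39l and Rpl3l reach 100%, Rpl10l 99.7%, while Rpl10 and Rpl3 reach 15.1% and 16.8%.

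Copies named after the parents had rows of their own. Rpl3-ps1 had a mean count of 59631 in the authors' deposited table, above the 47774 of Rpl3 itself, with a log2 fold change of 0.12 (SE 0.07). Rpl10-ps3 had a mean of 5516 and a fold change of 0.20 (SE 0.11), and Rps27rt a mean of 1700 and 0.07 (SE 0.16) in the authors' deposited table. All 6 such rows lay between 0.07 and 0.60, and 0 were called, with the highest, Rpl3-ps2, at a mean count of only 8.46. Over the 100 rows of processed copies of any ribosomal protein gene, 1 was called up and 0 down, with fold changes from -1.16 to 1.37 in the authors' deposited table. The 6 copies, of Rpl10, Rpl3 and Rps27, thus lay far below Rpl39l and Rpl10l. No copy named after Rpl39 or Rpl22 in this way had a row, and copies under other names were not analysed here.

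The ribosomal protein genes as a whole showed no such change. Of 79 cytosolic ribosomal protein genes, 47 of the large and 32 of the small subunit with the 5 parents among them, 0 were called up or down in the authors' deposited DESeq2 table, and the fold changes ran from -0.12 (Rps2) to 0.27 (Rpl34). At an adjusted p-value under 0.05 without a fold limit, 5 of 79 passed, against 30.5% of all genes, and 12 of 79 had an unadjusted p-value under 0.05. All 5 were positive and small, with log2 fold changes from 0.17 to 0.27 in the authors' deposited table, Rpl34 being the highest. The median was 0.09, with 71 of 79 genes above 0, but the count above 0 was 50 after removal of GC and length trends and 39 after centring on these genes themselves.

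Other ribosomal protein relatives with a row numbered 6 of 7 listed. Rps4l, the relative of X-linked Rps4x, was the only one called, at 0.70 (SE 0.10) with a mean count of 12164 in the authors' deposited table, while Rps4x stood at 0.18 (SE 0.07). Rpl36al, the relative of Rpl36a, had 0.23 (SE 0.11), against 0.03 (SE 0.08) for Rpl36a in the authors' deposited table. All 6 lay between 0.07 and 0.70, far below Rpl39l and Rpl10l. At a deposited adjusted p-value under 0.05 without a fold limit, 4 of the 6 passed, all positive, against 30.5% of all genes. Besides Rps4l these were Rpl7l1 at 0.35 (SE 0.14), Rsl24d1 at 0.36 (SE 0.15) and Rps15a-ps6 at 0.41 (SE 0.16). The 6 include Rps27rt, given above among the copies, and Rps15a-ps6, a processed copy by its name. This list was chosen with earlier results known, so nothing is read from its share.

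Since Rpl39l and Rpl10l are known from the germ line, markers of that lineage are given beside them. Of 20 listed germ line genes 14 had a row, and the authors' deposited table calls 8 of them up and 0 down. Over all genes it calls 9.4% up and 12.1% down. The median of the 14 was 1.01 on the log2 scale. Hormad1, a protein of meiotic chromosome axes, stood at 2.92 (SE 0.23), and Mael, of the piRNA pathway, at 2.78 (SE 0.24), whereas the meiotic axis gene Sycp3 had -0.13 (SE 0.22) in the authors' deposited table. The markers of late spermatids, Prm1, Prm2 and Tnp1, had no row used here. The part of these germ line genes in the fold changes of Rpl39l and Rpl10l was not tested. Of 12 fibroblast markers 6 had a row, with 4 called down and 0 up in the authors' deposited table. The uncalled ones were Pdgfrb at -0.54 (SE 0.37) and Thy1 at 0.34 (SE 0.43) in the authors' deposited table.

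The start regions of Rpl39l and Rpl10l are shown because these genes had the highest fold changes among the members. RefSeq windows on GRCm38.p6, which is not the build GRCm39 named in the submitters' processing notes, were matched by symbol for 9 of 10 members, Rpl3 being without one. The stretches below hold 80 bases before and 20 from the annotated start, from chr16:10170148-10170247 (plus strand) and chr12:66284382-66284481 (minus strand). Capitals mark CCGGAA on either strand, the core bound by ETS factors, which is common at ribosomal protein genes.
Rpl39l: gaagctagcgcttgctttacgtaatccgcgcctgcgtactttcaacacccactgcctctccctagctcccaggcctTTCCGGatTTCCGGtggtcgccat
Rpl10l: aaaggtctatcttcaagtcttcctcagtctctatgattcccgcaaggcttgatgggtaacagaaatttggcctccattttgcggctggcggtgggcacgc
The Rpl39l stretch holds 2 matches and the Rpl10l stretch 0.

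Over the full window of 300 bases, Rpl39l had 4 matches to CCGGAA and Rpl10l had 0. Among the members, the windows of Rpl39l, Rpl39, Rps27 and Rpl10 and 1 of 2 windows of Rps27l held this motif, and those of Rpl10l, Rpl3l, Rpl22l1 and Rpl22 did not. It was present in 48.5% of 68 windows of ribosomal protein genes and in 14.9% of 32851 windows in all. GCCATNTT, which covers the core of the YY1 site, was found on either strand for Rpl10, Rps27, Rpl22l1 and 1 of 2 windows of Rpl22, in 23.5% of ribosomal protein windows and in 6.05% of all. The E-box CACGTG occurred in 0 of the members' windows, against 11.8% of ribosomal protein windows and 7.15% of all windows. The TATA-like TATAAA, on either strand, occurred for Rpl39, Rpl22l1 and 1 of 2 windows of Rpl22. It was in 8.82% of ribosomal protein windows and in 13.6% of all windows. CpG pairs numbered 17 for Rpl39l, 13 for Rpl10l and 17 for each parent of these, while the windows of Rpl3l held 2 and 3. The median was 21.5 in ribosomal protein windows and 7 in all windows. Of the 4 motifs searched, Rpl39l and Rpl10l thus differ in CCGGAA, and the other 3 are in neither window.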

How the data were processed

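Polyadenylated RNA of sorted mouse embryonic stem cells was sequenced on a DNBSEQ instrument, per the labels' protocols. The submitters' processing notes name FastQC 0.12.1, Trimmomatic 0.39, STAR 2.7.11b, RSEM 1.3.3, DESeq2 1.45.3 and the build GRCm39, without roles, and the model formula is not given in the sources used here. The deposited table holds, per the file headers, the authors' mean normalized count (a signal pooled over libraries), the log2 fold change and its error on the log2 scale, a Wald statistic (a score, as deposited), and the deposited p-value and adjusted p-value. The statistic matched fold change over error to within 5.77e-07, and the calls matched the stated rule with 0 exceptions.

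The 6 count columns that match no sample label were not used, so no count model was fitted and depth is unknown here. Members and lists were chosen with earlier results of these data known. Named genes were the members, called ribosomal protein relatives, the extreme p53 targets and the genes nearest to Rpl39l, and any others were named after their values were seen. Intervals are 1.96 standard errors. Implied group means assume equal group sizes and that the fold change is the ratio of group means. Lengths, GC content and 75-base stretches came from GENCODE M21 (Biopython 1.88, Python 3.11.15). Trends of GC content and length were removed by loess (span 0.3, R 4.3.3) for 16795 genes. On data simulated over those genes with a linear GC trend, 200 genes with mean counts of at least 100 were given a log2 change of 1. Of these, 94% were recovered, with 5.05% of calls false. Recovery of changes at lower counts, such as that of Rpl3l, was not simulated. Nor were a length trend, negative changes or changes in as many genes as in these data. The simulation therefore does not show how well the removal worked on the deposited values. Alternatives were other centres, that removal, other thresholds and other lengths.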

Additional observations from a re-analysis of the deposited data

How the results depend on the processing

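Of 30 recomputed fold changes of the members, 25 moved by less than their standard error. With GC and length trends removed, Rpl39 went to -0.048, Rps27l to -0.12 and Rpl10 to -0.14. Centred on the ribosomal protein genes, with 0.09 subtracted, Rpl22 went to -0.080 and Rpl10 to -0.14. None of these was called before. The signs of Rpl39, Rpl22, Rps27 and Rpl3 are therefore not settled. Rpl10 was negative in each of these settings, but its deposited 95% interval, -0.18 to 0.08, spans both signs. The sign of Rpl10 is therefore not settled either. Rpl39l, Rpl10l and Rpl3l stayed positive under these alternatives, at 4.77, 4.10 and 1.89 with trends removed, and all 5 differences between paralog and parent moved by less than their error.

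The level of the parent over the paralog moved with the length used. Per kilobase of coding length it was 25.8 for Rpl39, 3.85 for Rpl22, 2.77 for Rps27 (with the longest annotated coding length of Rps27l, 315 bases), 36.4 for Rpl10 and 3220 for Rpl3, and without length correction 25.8, 4.04, 2.21, 36.4 and 3188. The 5 ribosomal protein genes past the adjusted p-value became 0 after centring on these genes, 3 with trends removed, 3 at a threshold of 0.01 and 7 among genes with mean counts from 50 upward.

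No paired analysis was possible because the library columns of the count table match no sample label or replicate number. For the same reason edgeR, DESeq2, other normalizations, filters on counts per library and fits leaving out a replicate were not run, nor was the shortest coding transcript tried as a length, and whether 1 library decides a value is not answered here. The causes of the changes above were not tested.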

Other observations

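Rpl39l and Rpl10l are autosomal relatives of X-linked genes, and 7 further such pairs outside the ribosome were looked up after these values had been seen. Of the 7 autosomal copies 4 had a row in the authors' deposited table, with 2 called up and 0 down. Of their 7 parents 0 were called up and 1 down. Over all genes 9.4% were called up and 12.1% down, and with so few genes nothing is read from these counts. Pdha2, the testis form of a pyruvate dehydrogenase subunit, had a log2 fold change of 2.98 (SE 0.78) on a mean count of 14.2, against 0.09 (SE 0.08) for Pdha1 in the authors' deposited table. Rbmxl2, the testis relative of the splicing protein gene Rbmx, stood at 1.06 (SE 0.12), and Rbmx itself at -1.68 (SE 0.17). Cstf2t had 0.43 (SE 0.12) and Utp14b -0.45 (SE 0.16) in the authors' deposited table. Among the listed copies with a row, Utp14b alone was negative, and it was not called. The list is short and does not hold every autosomal copy of an X-linked gene. Whether such copies share a direction was not tested.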
